A study of Arabidopsis thaliana with 28 samples.

Results

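The plasma membrane proton pump genes of Arabidopsis thaliana form a small family of P-type ATPases, and 10 of them were taken from the 30901 genes of the deposited count table by their locus identifiers. They are HA1, HA2, HA3, HA4, HA5, HA7, HA8, HA9, AHA10 and HA11, of which HA1 is also called OST2 and AHA10 is also called TT13. The family was chosen by its membership and by the counts of HA8, whose split between nucleus and cytoplasm was known from an earlier reading of this table. Values of HA8 are therefore a description and carry no test, while the other 9 genes are read from a fit across all genes.

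RNA was sequenced from nuclear and cytoplasmic fractions of whole rosettes of 14-day-old plants. The mutant mos11 is affected in MOS11, which encodes a factor of nuclear mRNA export, and Col-0 is the wild type. The labels name no allele of mos11 and no transgene or treatment. There were 5 libraries of mos11 nuclei, 5 of mos11 cytoplasm, 4 of Col-0 nuclei and 4 of Col-0 cytoplasm. The design asks which transcripts are distributed differently between the fractions when the export factor is impaired.

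At the plasma membrane such pumps move protons out of the cell at the expense of ATP. The proton gradient and membrane voltage they set up drive the uptake of potassium, nitrate, sugars and other solutes, open stomata through swelling of guard cells, and acidify the wall during cell expansion. Each pump holds itself back with its own C-terminal tail. Phosphorylation of the threonine just before the last residue lets a 14-3-3 protein bind the tail and release the pump, while phosphatases of clade D of the PP2C family remove the phosphate, and SAUR19-type proteins block those phosphatases. HA1 and HA2 are the main pumps of vegetative tissue. HA3 is best known from phloem companion cells, AHA10 from the seed coat, and HA8 and HA9 from pollen and anthers. In which membrane each member acts was not examined here.

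The ends of the coding sequences are shown for 7 of the genes because they carry the regulated threonine, the site through which the regulators described further on act. Each line gives the last 30 coding bases with the stop codon, read from RefSeq (TAIR10.1), and capitals mark the threonine codon before the last amino acid codon.
HA1: gatacagcaggacatcactacACTgtgtag
HA2: attgaaactcccagtcactacACTgtgtag
HA11: gaaaccattcaacaagcttacACCgtctga
HA4: gaaaccattcaacaagcttacACTgtctga
HA8: gataccattcaacaacactacACTgtttaa
HA7: gatcctaacagcaacaactacACAatctga
AHA10: aggatgatccgtgcagctcatACTgtctaa
All 10 members have a threonine codon at this place, written ACT in 5 of them, ACC in 4 and ACA in 1. The rest of the coding sequence is less alike. HA1 and HA2 were identical at 89.2% of aligned coding bases and HA4 and HA11 at 87.6%, while HA7 and AHA10, the least alike pair, shared 66.3%. Only HA1 and HA2 had coding stretches of 50 bases in common, 16 such windows in each, which is 0.571% of the windows of HA1 and 0.552% of those of HA2. Reads from those stretches cannot be assigned to either gene by sequence alone, and they are a small part of both genes.

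All 10 genes have long, many-exon transcripts. HA1 (AT2G18960) lies on chromosome 2 at 8221514 to 8227622 on the plus strand, with 16 exons, and HA2 (AT4G30190) on chromosome 4 at 14770395 to 14776247 on the minus strand, with 14 exons. HA11 (AT5G62670) lies on chromosome 5 at 25159208 to 25165209 with 22 exons, HA8 (AT3G42640) on chromosome 3 at 14724103 to 14728327 with 12 exons, and AHA10 (AT1G17260) on chromosome 1 at 5904058 to 5908898 with 21 exons, all on the plus strand. HA4 and HA11 each end in a convergent overlap with a glucosinolate transporter gene on the other strand, HA4 with GTR1 over 58 exonic bases and HA11 with GTR2 over 73. HA8 overlaps the long non-coding AT3G06425 over 135 bases, HA7 overlaps AT3G60328 over 134, and HA9 overlaps RTL1, which encodes an RNase III-like protein, over 39. None of the sources states whether counting used strand, so reads in these overlaps could belong to either gene. AT3G06425 and AT3G60328 had 0 counts in every library.

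Total counts were 1966574 to 18213517 in mos11 nuclei, 907270 to 1280371 in mos11 cytoplasm, 2547560 to 3719008 in Col-0 nuclei and 556016 to 1160001 in Col-0 cytoplasm. The deepest library was mos11 nucleus replicate 2. Together with all cytoplasmic libraries it was on 2 flow cells, while the other nuclear libraries were on flow cell 1, so fraction and flow cell cannot be told apart. The biological coefficient of variation was 6.13% in mos11 nuclei and 10.8% in mos11 cytoplasm, against 17.9% in Col-0 nuclei and 23.7% in Col-0 cytoplasm. Levels below are CPM scaled by the TMM method, and changes are log2 fold changes with a standard error from edgeR's quasi-likelihood test, called at a Benjamini-Hochberg adjusted p under 0.05. The labels do not say that libraries came from separately grown plants, so these p-values measure the spread between libraries, which may be technical. MOS11 itself averaged 8.31 ± 2.7 CPM in mos11 cytoplasm, against 108 ± 18 CPM in Col-0 cytoplasm (SD, n = 5 and 4), and 169 ± 9.1 CPM in mos11 nuclei, against 205 ± 15 CPM in Col-0 nuclei. The cytoplasmic difference was -3.73 (adjusted p = 5.78e-13) and the nuclear one did not pass (adjusted p = 0.0546). The 6 markers of rosette leaf summed to at least 6377 CPM in every library. The 4 pollen markers and 4 seed markers summed to at most 1.19 and 3.63 CPM in any library. The 6 root markers summed to 21.0 to 30.8 CPM in mos11 nuclei and 28.5 to 42.2 CPM in Col-0 nuclei. In cytoplasm they summed to 75.1 to 121 CPM in mos11 and 90.8 to 182 CPM in Col-0. Of these, PRP3 was lower in mos11 nuclei (-0.59, edgeR adjusted p = 0.0213) and cytoplasm (-0.79, edgeR adjusted p = 0.0184). No other tested root marker was called. The part of root tissue in the pump values was not tested.

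HA1 and HA2 carried most of the pump message in every library. Per kilobase of exon, they made up 58.4 to 61.2% of the family's summed level in mos11 nuclei, 66.7 to 73.6% in mos11 cytoplasm, 57.4 to 62.3% in Col-0 nuclei and 65.8 to 75.3% in Col-0 cytoplasm. The order of levels per kilobase in mos11 nuclei was HA1 at 78.9 ± 2.3 CPM per kb, HA2 at 61.1 ± 2.7, HA3 at 30.8 ± 1.4, HA11 at 26.6 ± 2.1, HA5 at 16.3 ± 0.94 and HA8 at 11.4 ± 0.65 (SD, n = 5). HA7 at 4.85 ± 1.2, AHA10 at 3.75 ± 0.29, HA4 at 0.965 ± 0.17 and HA9 at 0.0784 ± 0.060 CPM per kb followed. HA3 and HA11 overlapped between libraries in that order, with 29.3 to 32.3 and 25.1 to 30.1 CPM per kb, as did HA7 and AHA10 (3.02 to 5.96 and 3.45 to 4.16). In Col-0 nuclei HA1 and HA2 were not told apart, at 66.8 to 72.7 and 65.5 to 79.2 CPM per kb, and HA11 at 34.4 ± 7.0 stood beside HA3 at 26.6 ± 3.2 CPM per kb (SD, n = 4). With coding length in place of exon length, HA1 averaged 113 and HA2 90.3 CPM per kb in Col-0 nuclei, so the order of that pair rests on the length used. In mos11 cytoplasm HA1 at 68.4 ± 6.9 CPM per kb lay above HA2 at 50.1 ± 6.0 without overlap, followed by HA11 at 23.8 ± 2.8 and HA3 at 19.6 ± 2.3, which overlapped (SD, n = 5). In Col-0 cytoplasm HA2 at 47.1 ± 15 and HA1 at 38.9 ± 5.7 CPM per kb overlapped, as did HA3 at 16.8 ± 4.5 and HA11 at 16.3 ± 3.9 (SD, n = 4). The other members stood at 3.34 CPM per kb or less in mos11 cytoplasm and at 2.08 or less in Col-0 cytoplasm. HA4 and HA9 did not pass the filter on low counts and were not tested, which leaves 7 tested members besides HA8.

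**Figure D1:**
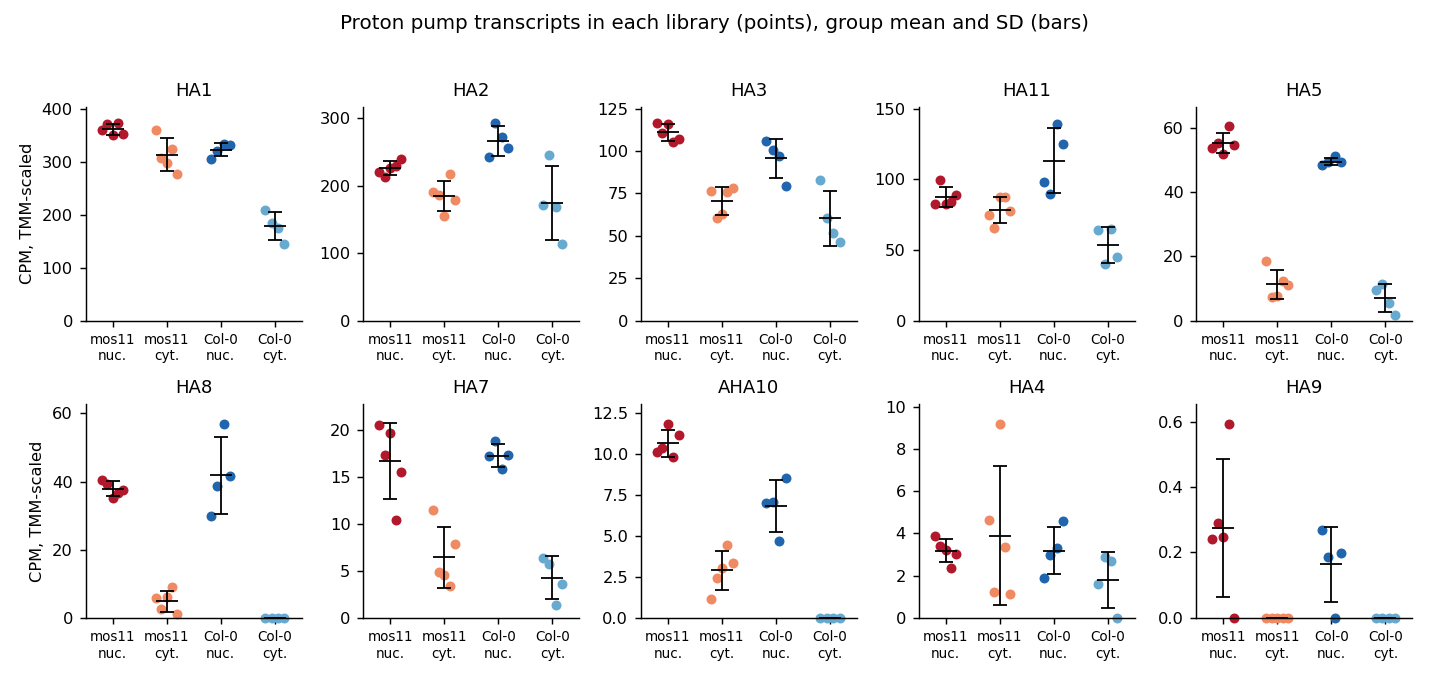
TMM-scaled CPM of each pump gene (vertical axes, each from 0) in every library (points) of mos11 nuclei, mos11 cytoplasm, Col-0 nuclei and Col-0 cytoplasm, with group mean and SD in black. HA1 in mos11 cytoplasm lies above all Col-0 cytoplasm libraries, and HA8 and AHA10 are at 0 in every Col-0 cytoplasm library.

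The first question was how the levels of the pump transcripts compared between nucleus and cytoplasm. Each level is relative to the total of its own library, so it does not show how the molecules of a transcript were divided. HA5, HA7, HA8 and AHA10 passed the filter on low counts through the nuclear libraries alone, so their nuclear excess is a description and no count rests on it. Of the 4 members that passed in each fraction (HA1, HA2, HA3 and HA11), 2 were higher in the nucleus in mos11, where 40.8% of all 16207 tested genes were called higher, 35.3% lower and 76.1% either way. In Col-0 all 4 were higher in the nucleus, where 40.6% of all tested genes were called higher, 32.8% lower and 73.5% either way. Among the 9905 genes that passed in each fraction, 27.4% were called higher in the nucleus in mos11 and 28.5% in Col-0. The median log2 fold change of nucleus over cytoplasm was 0.24 for the 4 members in mos11, against -0.48 for those 9905 genes, and 0.76 in Col-0, against -0.47. The 8 pump genes that passed the filter all belong to the longest quartile of transcripts, those of at least 2390 bases, and in that quartile 63.5% of 4050 genes were higher in the nucleus in mos11 and 68% in Col-0. Its median log2 fold change, 0.83 in mos11 and 1.20 in Col-0, lay above the median of the 4 members in each genotype. The quartile is an unlike set, since it also holds genes that passed through the nuclear libraries alone, HA5, HA7, HA8 and AHA10 among them. How the 4 members stand against long transcripts that passed in each fraction was not tested. The part of transcript length in the members' values was not tested.

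In mos11, HA8, chosen for this split, had the lowest cytoplasmic level relative to the nucleus among the 8 members that passed the filter. In Col-0 neither HA8 nor AHA10 had a cytoplasmic count, and they cannot be ordered. In nuclei it stood at 40.6, 39.4, 35.3, 36.5 and 37.5 CPM in the mos11 libraries and at 29.8, 38.7, 56.9 and 41.6 CPM in the Col-0 libraries. In the cytoplasm it had 5, 2, 4, 8 and 1 counts in the mos11 libraries, a mean of 4.86 ± 3.1 CPM (SD, n = 5), and not a single count in any of the 4 Col-0 libraries. The nuclei of the genotypes overlap widely, while every cytoplasmic mos11 library held at least 1 count and no Col-0 one did. On the scale of raw totals, 0 of 3705550 counts allows a level of up to 0.810 CPM in Col-0 cytoplasm, covering counting error only. Against that floor of 3 counts over the group, mean HA8 was 75.0-fold higher in Col-0 nuclei. In mos11 cytoplasm, on 20 counts, it was 4.25-fold higher than the floor. Only the Col-0 cytoplasm is bounded in these folds. The other group is taken at its mean, whose own error could make them smaller. In mos11 the nuclear level of HA8 was 16.7-fold the cytoplasmic one on the same scale. Its cytoplasmic level was 5.997% of the nuclear one in mos11, against 1.33% in Col-0 with the cytoplasm at its floor.

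AHA10, the seed-coat pump, was a low transcript with a similar shape. It stood at 10.1, 10.3, 11.8, 9.80 and 11.2 CPM in mos11 nuclei and at 1.15, 2.42, 3.06, 4.44 and 3.36 CPM in mos11 cytoplasm, and the fractions did not overlap. In Col-0 it stood at 6.99, 7.08, 4.65 and 8.56 CPM in nuclei and at 0 counts in every cytoplasmic library. The nucleus over cytoplasm change on the TMM scale was 1.86 ± 0.34 in mos11. On raw totals the mean nuclear level was 7.89-fold the cytoplasmic one in mos11 and 12.3-fold the cytoplasmic floor in Col-0. The seed and seed-coat markers BAN, TT12, SESA1 and CRA1 were all at 0 in Col-0 cytoplasm, and TT12 and SESA1 were at 0 in mos11 cytoplasm and Col-0 nuclei.

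HA5 and HA7 likewise had higher levels in the nucleus. HA5 stood at 52.0 to 60.6 CPM in mos11 nuclei and 7.26 to 18.4 CPM in mos11 cytoplasm, and at 48.4 to 51.2 CPM in Col-0 nuclei and 1.79 to 11.5 CPM in Col-0 cytoplasm. Its change was 2.25 ± 0.19 in mos11 and 2.90 ± 0.28 in Col-0, with no overlap of fractions in either genotype. HA7, linked to root hair formation under iron shortage, stood at 10.4 to 20.5 CPM in mos11 nuclei and 3.33 to 11.5 CPM in mos11 cytoplasm, and at 15.9 to 18.8 CPM in Col-0 nuclei and 1.36 to 6.39 CPM in Col-0 cytoplasm. Its change was 1.37 ± 0.29 in mos11, where 1 cytoplasmic library reached into the nuclear range, and 2.12 ± 0.43 in Col-0.

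The 4 most abundant pumps had closer levels in nucleus and cytoplasm on the TMM scale. HA3 was higher in the nucleus by 0.65 ± 0.13 in mos11 (adjusted p = 4.43e-05) and by 0.66 ± 0.16 in Col-0 (adjusted p = 0.000467), the same within error. HA2 was higher in the nucleus by 0.28 ± 0.13 in mos11 (adjusted p = 0.0446, with overlapping fractions) and by 0.64 ± 0.15 in Col-0 (adjusted p = 0.000358). The call for HA2 in mos11 was lost on leaving out any mos11 library other than cytoplasm replicate 4, 9 of the 18 libraries in all. HA1 was higher in the nucleus by 0.86 ± 0.11 in Col-0 (adjusted p = 2.07e-07), where the fractions did not overlap, and stood at 0.21 ± 0.10 in mos11 (adjusted p = 0.0537), where they did. HA11 was higher in the nucleus by 1.03 ± 0.17 in Col-0 (adjusted p = 5.91e-06) and stood at 0.17 ± 0.14 in mos11 (adjusted p = 0.27). Whether HA1 and HA11 pass in mos11 depends on the settings. Median-of-ratios scaling (RLE) raised the all-gene median by 0.23 in mos11 and by 0.18 in Col-0, and HA1 at 0.44 (adjusted p = 0.000167) and HA11 at 0.40 (adjusted p = 0.0081) then passed in mos11. HA1 also passed with the replicate block, with DESeq2, with no filter, with a looser filter of at least 1 CPM in 4 libraries, with only the groups compared, and without mos11 cytoplasm replicate 1 or 4 or any Col-0 cytoplasm library, at 0.22 to 0.47, and HA11 passed with DESeq2 (0.43) and with the looser filter (0.31).

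The cytoplasmic level was also expressed in percent of the nuclear level, on raw totals. HA5, HA7, HA8 and AHA10 passed the filter through the nuclear libraries alone. Such entry favours a low percentage, so no grouping of the family is drawn from it. HA4, which did not pass, stood at 57.1% in mos11 and 24.1% in Col-0, on 15 and 4 cytoplasmic counts. The percentages depend on the scale: TMM scaling puts HA1 at 86.7% in mos11 and 55.3% in Col-0, HA11 at 89.6% in mos11 and 47.3% in Col-0, and HA5 at 20.5% in mos11 and 14.3% in Col-0. The raw-total values that follow are lower throughout. HA11 stood at 41.7% in mos11 and 19.9% in Col-0, and HA1 at 40.1% in mos11 and 23.3% in Col-0. HA2 stood at 38.0% in mos11 and 27.7% in Col-0, and HA3 at 29.5% in mos11 and 26.6% in Col-0. These 4 lie on both sides of the typical transcript. HA7 stood at 17.7% in mos11 and 10.3% in Col-0, and HA5 at 9.48% in mos11 and 6.03% in Col-0. AHA10 stood at 12.7% in mos11 and, with the cytoplasm at its floor, at 8.14% in Col-0. Of the 7 tested members other than HA8, each had the higher percentage in mos11. This was the common direction: of 4660 genes whose nuclei held 50 CPM or more in each genotype, 76.1% had the higher percentage in mos11, with a median of 33.3% in mos11 and 26.8% in Col-0. HA2 lay near the middle of those genes, above 55.5% of them in mos11 and 51.2% in Col-0. No rank is given for HA5, which passed the filter through the nuclear libraries alone.

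**Figure D2:**
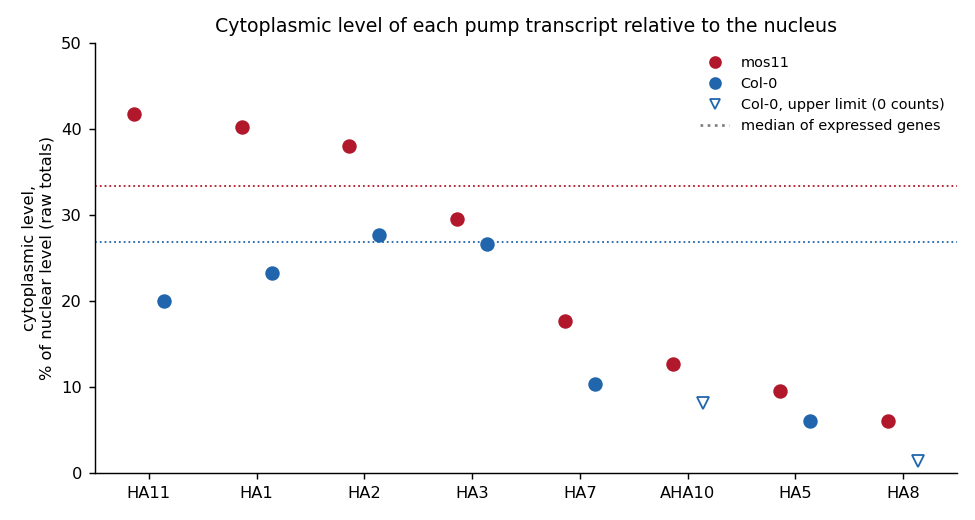
Cytoplasmic level as a percentage of the nuclear level (vertical axis, group means on raw totals) for the 8 pump genes that passed the filter, in mos11 (red, left) and Col-0 (blue, right), with upper limits as open triangles where Col-0 cytoplasm had 0 counts. Dotted lines are the medians of 4660 expressed genes, 33.3% in mos11 and 26.8% in Col-0, and HA11 and HA1 show the widest gap between genotypes.

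The second question was how the mutant differed from the wild type within each fraction. In a bulk fraction, fewer cells of a type and less RNA per cell cannot be told apart. In the nucleus, 1 of the 7 tested members was higher in mos11 (AHA10), 1 was lower (HA11) and 5 were not called, while 9.14% of all tested genes were called higher, 10.9% lower and 20.1% either way. The members' median log2 fold change was 0.16, against -0.07 over all genes.

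AHA10 averaged 10.7 ± 0.83 CPM in mos11 nuclei, against 6.82 ± 1.6 CPM in Col-0 nuclei (SD, n = 5 and 4), and every mos11 library lay above every Col-0 library. The log2 fold change was 0.61 ± 0.19 (adjusted p = 0.0208). It lost the call on leaving out 3 of the 18 libraries in turn: mos11 nucleus replicate 2 (0.63, adjusted p = 0.0515), mos11 nucleus replicate 3 (0.58, adjusted p = 0.0518) and Col-0 nucleus replicate 3 (0.48, adjusted p = 0.0816).

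HA11 stood at 82.8, 99.3, 82.6, 84.0 and 89.3 CPM in mos11 nuclei, against 98.4, 90.0, 139 and 125 CPM in Col-0 nuclei. Col-0 replicates 3 and 4 were the high ones, and the other pair lay within or near the mutant range. The log2 fold change was -0.36 ± 0.12 (adjusted p = 0.0382), and it lost the call on leaving out 7 of the 18 libraries, the weakest being -0.25 (adjusted p = 0.16) without Col-0 nucleus replicate 3, and with only the nuclei fitted (-0.31, adjusted p = 0.0727). The 6 others were mos11 nucleus replicates 1, 3, 4 and 5, Col-0 nucleus replicate 4 and mos11 cytoplasm replicate 4. GTR2, which overlaps HA11, averaged 36.7 ± 2.8 CPM in mos11 nuclei and 35.2 ± 5.1 CPM in Col-0 nuclei. With replicate number as a block neither AHA10 (0.67, adjusted p = 0.0616) nor HA11 (-0.30, adjusted p = 0.196) passed, although the numbers were not found to pair mos11 with Col-0.

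HA1 and HA2, the main pumps, did not pass in the nucleus and leaned opposite ways. HA1 stood at 359.9, 370.1, 349.9, 373 and 352 CPM in mos11 nuclei, against 305, 320.3, 332 and 331 CPM in Col-0 nuclei, every mutant library above every wild-type one (0.16 ± 0.10, adjusted p = 0.261). It passed with DESeq2 (0.18, adjusted p = 0.00514) and with only the nuclei fitted (0.22, adjusted p = 0.0318). HA2 stood at 220.3, 213, 226, 229 and 240.1 CPM in mos11 nuclei, against 242, 293, 273 and 256 CPM in Col-0 nuclei, every mutant library below every wild-type one (-0.24 ± 0.12, adjusted p = 0.191). The separation of the libraries was thus complete in both genes, as it was in HA5 and AHA10, and the differences of HA1 and HA2 were small. The share of all genes that separate in this way was not computed, so no result rests on it. HA3 (0.22 ± 0.11, adjusted p = 0.193), HA5 (0.16 ± 0.12, adjusted p = 0.412) and HA7 (-0.04 ± 0.17, adjusted p = 0.918) also did not pass.

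In the cytoplasm 1 of the 4 members that passed the filter there, HA1, was higher in mos11 and none was lower, while 6.02% of all tested genes were called higher, 6.4% lower and 12.4% either way. Among genes that passed in each fraction, 8.2% were called higher and 9.77% lower. The median log2 fold change of the 4 members was 0.37, against -0.006 over the genes that passed in each fraction and 0.04 over all genes. In the longest quartile of transcripts, not limited to genes that passed in each fraction, it was 0.21, with 9.83% called higher and 2.17% lower.

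HA1 was the clearest genotype difference of the family. It stood at 359.8, 307, 297, 324 and 276 CPM in mos11 cytoplasm, against 208, 184, 175 and 145 CPM in Col-0 cytoplasm. The lowest mutant library lay well above the highest wild-type library. The log2 fold change was 0.81 ± 0.11 (adjusted p = 2.07e-05), a 1.76-fold higher level in mos11, and it held in each of the 18 omissions, at 0.73 to 0.91. HA2, its closest relative in sequence, stood at 190.3, 186, 155, 217 and 178 CPM in mos11 cytoplasm, against 171, 245, 168 and 113 CPM in Col-0 cytoplasm. Its groups overlapped throughout, with a log2 fold change of 0.12 ± 0.15 (adjusted p = 0.662).

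AHA10 had 1, 2, 2, 4 and 3 counts in mos11 cytoplasm, against 0 in all 4 Col-0 libraries. Its mos11 mean was 2.53-fold the floor of 3 counts over the Col-0 group, a fold that leaves out the error of the mos11 mean. The difference was called (edgeR adjusted p = 0.02), and the call was lost without Col-0 cytoplasm replicate 3 (edgeR adjusted p = 0.0614). The call rests on 12 counts in all in a gene tested only because its nuclear libraries passed the filter. HA11 stood at 75.0, 65.3, 87.3, 87.7 and 77.3 CPM in mos11 cytoplasm, against 63.9, 40.3, 65.0 and 44.8 CPM in Col-0 cytoplasm. Every mutant library lay above every wild-type one, narrowly, and the change of 0.50 ± 0.18 did not pass (adjusted p = 0.0693). Without both fractions of Col-0 replicate 3 it was 0.61 and passed (adjusted p = 0.0424). HA5 (0.80 ± 0.38, adjusted p = 0.184), HA7 (0.71 ± 0.57, adjusted p = 0.467) and HA3 (0.23 ± 0.17, adjusted p = 0.404) had overlapping groups and were not called.

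**Figure D3:**
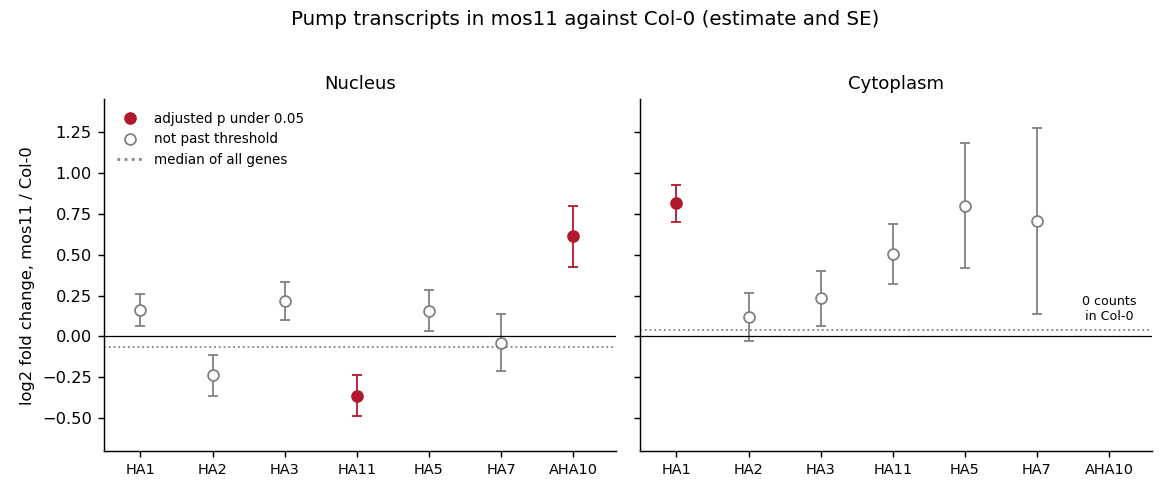
Log2 fold change of mos11 over Col-0 with its standard error (vertical axis) for the 7 tested pump genes other than HA8, in the nucleus (left) and the cytoplasm (right), filled red where the adjusted p is under 0.05. HA1 in the cytoplasm stands at 0.81, AHA10 in the nucleus at 0.61 and HA11 in the nucleus at -0.36, and AHA10 in the cytoplasm has no bar because Col-0 had 0 counts.

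The third question was whether the ratio of nucleus to cytoplasm differed between the genotypes, tested as an interaction. HA1 and HA11, 2 of the 4 members that passed in each fraction, had a lower ratio in mos11 and none had a higher one. Of all tested genes, 0.919% were called lower, 0.66% higher and 1.58% either way. Among genes that passed in each fraction 1.32% were called lower, and in the longest quartile of transcripts 2.62%. The difference, mos11 minus Col-0, was -0.65 ± 0.15 for HA1 (adjusted p = 0.0257) and -0.87 ± 0.22 for HA11 (adjusted p = 0.0414), against a median of -0.09 over all genes and -0.30 over the longest quartile. For HA1, the cytoplasmic level was higher in mos11 (0.81) and the nuclear level was not called (0.16). For HA11, the nuclear level was called lower (-0.36), with overlapping libraries. Its cytoplasmic change of 0.50 was larger in size, without overlap, and just missed the threshold (edgeR adjusted p = 0.0693). Which fraction carries the HA11 difference was not tested. The HA1 difference lost its call without mos11 cytoplasm replicate 4 (-0.60, adjusted p = 0.0758) or Col-0 cytoplasm replicate 4 (-0.57, adjusted p = 0.0628). The HA11 difference lost it in 12 of the 18 omissions, namely mos11 nucleus and cytoplasm replicates 1, 3, 4 and 5, Col-0 nucleus replicates 3 and 4, and Col-0 cytoplasm replicates 2 and 4. Its values ranged from -0.98 to -0.74 over all 18, and it was also lost with RLE scaling (-0.81, adjusted p = 0.0526). With the replicate block both passed, at -0.65 for HA1 (adjusted p = 0.00338) and -0.90 for HA11 (adjusted p = 0.00344).

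The remaining members had differences of -0.36 ± 0.19 for HA2, -0.64 ± 0.40 for HA5, -0.74 ± 0.59 for HA7 and -0.02 ± 0.20 for HA3, and none passed. AHA10 gave a difference of -0.64 with Col-0 cytoplasm at its floor and the other groups at their means. It did not pass (edgeR adjusted p = 0.146). The median over the 4 members that passed in each fraction was -0.50. HA3 sat at 0 within its error.

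HA4 and HA9 were near the limit of detection. HA4, a pump of root endodermis, had 140, 15, 58 and 4 counts summed over mos11 nuclei, mos11 cytoplasm, Col-0 nuclei and Col-0 cytoplasm. Its means of 3.18 ± 0.55 CPM in mos11 nuclei and 3.18 ± 1.1 CPM in Col-0 nuclei do not differ beyond their spread, although its close relative HA11 was among the abundant pumps. GTR1, on the other strand of the HA4 end, averaged 36.2 ± 4.1 CPM in mos11 nuclei and 26.4 ± 12 CPM in Col-0 nuclei. HA9, an anther pump, had 12 counts over mos11 nuclei, 3 over Col-0 nuclei and 0 in either cytoplasm, where up to 0.508 CPM in mos11 and 0.810 CPM in Col-0 could have gone unseen. The 4 pollen markers were at 0 in all libraries except some mos11 nuclei. RTL1, which overlaps HA9, averaged 44.0 ± 3.7 CPM in mos11 nuclei and 46.3 ± 1.9 CPM in Col-0 nuclei, far above HA9 itself.

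Summed over the 10 genes, the family's level was alike in the nuclei of the genotypes and differed in the cytoplasm. It was 909 ± 8.3 CPM in mos11 nuclei and 916 ± 48 CPM in Col-0 nuclei, and 677 ± 57 CPM in mos11 cytoplasm and 479 ± 91 CPM in Col-0 cytoplasm (SD, n = 5 and 4). With RLE scaling the sum was 983 CPM in mos11 nuclei and 978 CPM in Col-0 nuclei. The lowest mutant cytoplasm, at 633 CPM, lay above the highest wild-type one, at 550.1 CPM. This sum includes HA8, carries no test, and is mostly HA1 and HA2. The balance within that pair also differed. HA1 counts were 1.46 to 1.73 times HA2 counts in mos11 nuclei and 1.09 to 1.29 times in Col-0 nuclei, and 1.497 to 1.92 times in mos11 cytoplasm and 0.753 to 1.29 times in Col-0 cytoplasm. Both fractions thus showed a higher share of HA1 in the mutant with no overlap between genotypes. This ratio does not depend on the scaling of libraries, it was looked at after the levels were seen, and it was not tested.

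**Figure D4:**
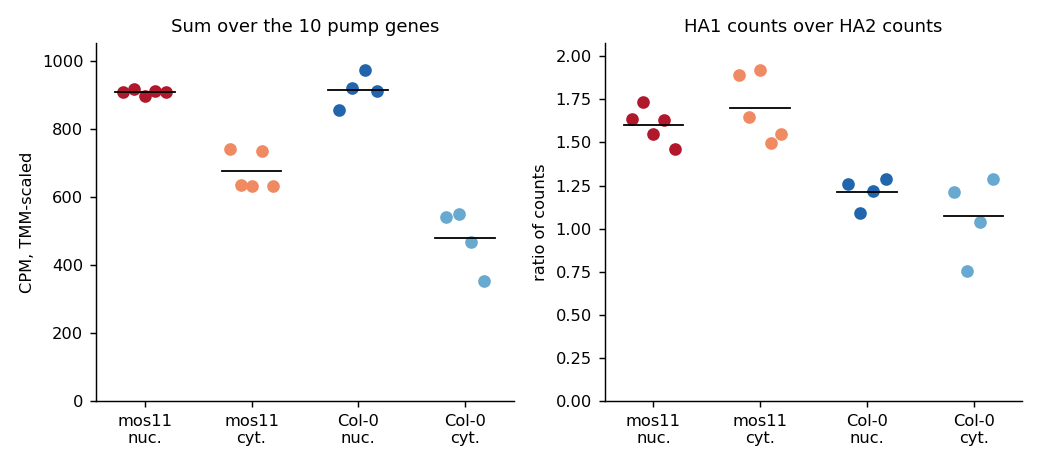
Left, summed TMM-scaled CPM of the 10 pump genes per library. Right, HA1 counts divided by HA2 counts per library, with points for libraries and lines for group means. The ratio lies at 1.46 to 1.92 in all mos11 libraries and at 0.753 to 1.29 in all Col-0 libraries.

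The genes most like the main pumps over the 18 libraries were found by Pearson's r of log2 CPM, as a description in which points share libraries, depth and the contrast of fractions. HA1 was closest to TGG1 (r = 0.97), a myrosinase gene, then AT5G59660, AT3G06530, CAX7 and WAVE2 (all r = 0.94). HA2 was closest to AT3G27610 (r = 0.92), SEC5B, TRM8, GLY1 and AT4G22350 (the lowest of these at r = 0.91), and HA8 to ULP1D (r = 0.98), AT1G20270, AT1G72700, AT2G14255 and ABCC2 (the lowest at r = 0.97). HA1 and HA2 themselves correlated at r = 0.61, which ranks HA2 at 3097 among the genes most like HA1. With group means subtracted, which removes the contrasts between fractions and genotypes, HA1 was closest to HPA1 (r = 0.90), AT4G18230, AT2G30160, ELP and AT1G10990, and HA2 to AT3G54040 (r = 0.95), AT3G61690, AT1G49050, SEC5B and AT3G27610. HA8 was then closest to PUT2 (r = 0.94), LpxB, AT3G09060, AT4G11845 and AT5G08510. On that scale HA5 was the member most like each of the main pumps, at r = 0.80 with HA1 and with HA2.

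Of the genes whose proteins bind and switch the pumps, the 14-3-3 genes were the group with the most calls in 1 direction. Of the 11 tested 14-3-3 genes, 6 were lower in mos11 nuclei, where 10.9% of all tested genes were, 7 were lower in mos11 cytoplasm, where 6.4% were, and none was higher in either. Their median log2 fold change was -0.47 in the nucleus and -0.46 in the cytoplasm, against -0.07 and 0.04 over all genes. In the nucleus GRF11 averaged 7.08 ± 1.8 CPM in mos11 and 25.2 ± 3.7 CPM in Col-0 (-1.83 ± 0.20, adjusted p = 4.18e-07), followed by GRF10 (-0.54), GRF2 (-0.50) and GRF8 (-0.79). In the cytoplasm GRF2 averaged 364 ± 25 CPM in mos11 and 539 ± 24 CPM in Col-0 (-0.57 ± 0.10, adjusted p = 0.000212), followed by GRF9 (-0.56), GRF8 (-0.82) and GRF3 (-0.49). In contrast to the pumps, 10 of the 11 were lower in the nucleus than in the cytoplasm in each genotype, with medians of -2.57 in mos11 and -2.66 in Col-0. All 11 passed the filter in each fraction. Of the 9905 genes that did, 52% were lower in the nucleus in mos11 and 48.8% in Col-0, against 35.3% and 32.8% of all tested genes.

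Of the 9 clade D phosphatase genes, which act against the 14-3-3 step, AT5G66080 was lower in mos11 nuclei (3.77 ± 0.98 CPM in mos11 and 11.2 ± 1.4 CPM in Col-0, -1.58 ± 0.23, adjusted p = 2.01e-05). No other clade D gene was called in mos11 nuclei, and in the cytoplasm edgeR called 0 of the 9, with 3 at an unadjusted p under 0.05 and 1 called by DESeq2. Of 6 SAUR19 subfamily genes, small near-identical genes whose reads may be shared, 3 were tested. In the nucleus edgeR called 0 of them, with 2 at an unadjusted p under 0.05 and 2 of the 6 called by DESeq2, and in the cytoplasm all of these counts were 0.

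Among 17 tested kinases and partners of the pumps, 2 were higher and 5 lower in mos11 nuclei, and 2 were higher and none lower in mos11 cytoplasm. Over all tested genes 9.14% were called higher and 10.9% lower in nuclei, and 6.02% higher and 6.4% lower in cytoplasm. The 2 of 17 higher in nuclei are near that share. The 5 of 17 lower in nuclei and the 2 of 17 higher in cytoplasm lie above theirs, and none was lower in cytoplasm. These counts were not tested against the shares. The list's median was -0.13 in nuclei and -0.07 in cytoplasm. AT4G14480, which encodes BLUS1, a kinase that carries the blue light signal to the guard cell pumps, averaged 28.6 ± 5.2 CPM in mos11 nuclei and 12.9 ± 4.3 CPM in Col-0 nuclei (1.17 ± 0.20, adjusted p = 0.000103). TMK1 (-0.55 ± 0.11) and its relative AT3G23750 (-0.65 ± 0.13), receptor kinases of the family that phosphorylates the pumps upon auxin, and FER (-0.70 ± 0.15), a receptor kinase whose ligand inhibits the pumps, were lower in mos11 nuclei. The other 3 called there, named after their values were seen, were PHOT2 (0.45), AT5G06970 (-0.54) and AT2G01820 (-0.35). In the cytoplasm PHOT2, a blue light receptor upstream of the guard cell pumps, averaged 356 ± 43 CPM in mos11 and 166 ± 27 CPM in Col-0 (1.12 ± 0.16, adjusted p = 2.32e-05), and J3, a chaperone that represses a kinase inhibiting the pumps, was higher by 0.35 ± 0.11. The summed level of 6 guard cell markers was 231 to 263 CPM in mos11 nuclei and 152 to 215 CPM in Col-0 nuclei, and 96.3 to 128 CPM in mos11 cytoplasm and 55.5 to 104 CPM in Col-0 cytoplasm. Of the 6, which include KAT1, 3 were higher and 1 lower in mos11 nuclei, 1 was higher in mos11 cytoplasm, and none was at 0. MYB60 was higher in both fractions (0.81 in nuclei, 1.02 in cytoplasm). Their part in the pump values was not tested.

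Other proton and cation pumps were set beside the family. Of 28 tested genes of vacuolar proton pumps, 1 was higher and 6 lower in mos11 nuclei, and none was higher and 7 were lower in mos11 cytoplasm, with medians of -0.21 in both. All tested genes had medians of -0.07 in nuclei and 0.04 in cytoplasm, with 10.9% and 6.4% called lower. AVP1, the vacuolar pyrophosphatase, was higher in mos11 nuclei (0.38 ± 0.10), while VHA-A (-0.34), VAB3 (-0.34) and VHA-A3 (-0.36), of the vacuolar ATPase, were lower there. In the cytoplasm VHA-C3 (-0.61), VAB3 (-0.48), VHA-A (-0.42) and VAB1 (-0.39) were lower. In the nucleus against the cytoplasm, 23 of 28 were lower in mos11 and 21 of 28 in Col-0, where 35.3% and 32.8% of all tested genes were. Of the 27 that passed the filter in each fraction, 22 were lower in mos11 and 21 in Col-0. Among the 9905 genes that passed likewise, 52% were lower in mos11 and 48.8% in Col-0.

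The other P-type ATPases, which carry calcium, heavy metals and lipids, were set beside them too. Of 28 tested, 19 passed the filter in each fraction, and of these 15 were higher in the nucleus in mos11 and 17 in Col-0, with medians of 1.43 in mos11 and 1.96 in Col-0. Among the 9905 genes that passed likewise, 27.4% were called higher in mos11 and 28.5% in Col-0. In mos11 nuclei none of the 28 was higher and 7 were lower (10.9% of all tested genes and 15.7% of the longest quartile). Among the 7 were AT3G27870 (-0.79), the copper pumps PAA2 (-0.83) and RAN1 (-0.54), and the zinc exporter HMA4 (-0.75). In mos11 cytoplasm 6 of the 28 were higher (6.02% of all tested genes and 9.83% of the longest quartile) and none lower, among them the lipid flippase genes ALA2 (0.90) and AT1G72700 (0.95) and the endomembrane calcium pump genes ECA4 (0.94) and ECA1 (0.995). The nucleus to cytoplasm ratio was lower in mos11 for ECA3 (-1.32 ± 0.29, adjusted p = 0.0225) and ECA1 (-1.25 ± 0.29, adjusted p = 0.0304). The median of that difference was -0.65 over the 28 genes, against -0.09 over all genes.

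Of 9 tested potassium transport genes, which use the voltage made by the pumps, 2 were higher and 1 lower in mos11 nuclei and 1 was higher in mos11 cytoplasm. Over all tested genes 9.14% were called higher and 10.9% lower in nuclei, and 6.02% higher in cytoplasm. The 1 of 9 lower in nuclei is near its share. The 2 of 9 higher in nuclei and the 1 of 9 higher in cytoplasm lie above theirs. With so few genes these counts were not tested against the shares. KT2/3 (AT4G22200), a channel of the phloem, was higher in both fractions, at 27.5 ± 9.3 CPM in mos11 cytoplasm and 5.45 ± 5.4 CPM in Col-0 cytoplasm (2.19 ± 0.49, adjusted p = 0.00348). SKOR, a channel that loads the xylem, was higher in mos11 nuclei (0.96 ± 0.34), and KAT1, a guard cell channel, was lower there (-0.60 ± 0.17). The summed level of 4 phloem markers overlapped between genotypes in both fractions, at 76.2 to 149.9 CPM in mos11 cytoplasm and 83.5 to 134 CPM in Col-0 cytoplasm.

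**Figure D5:**
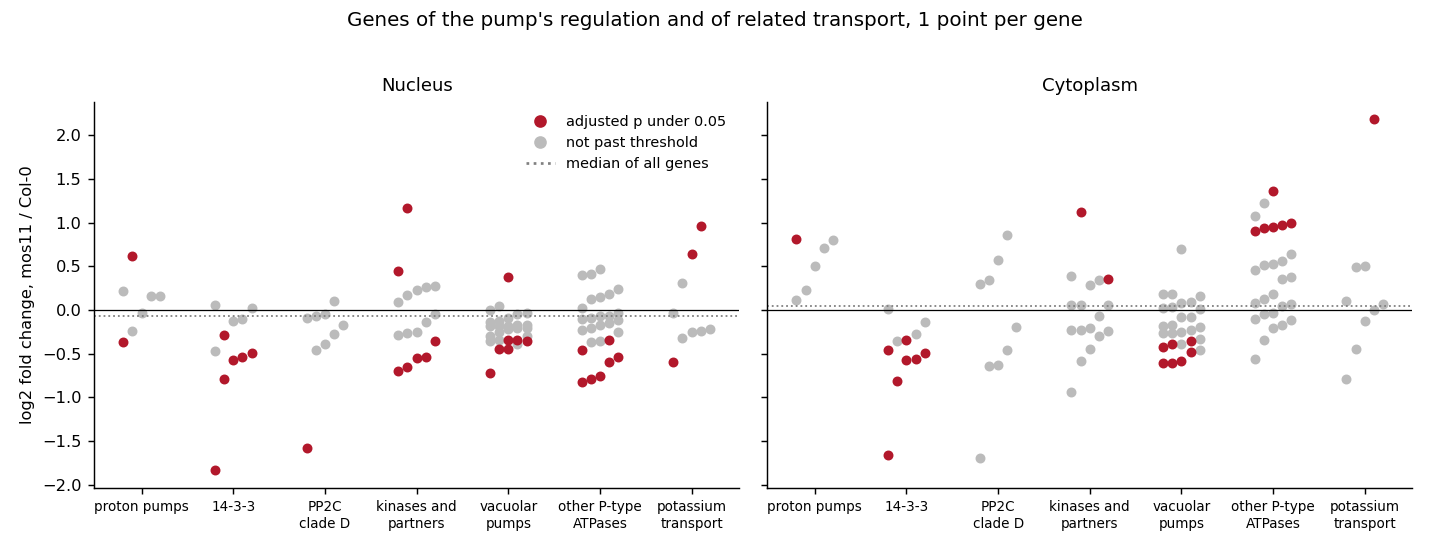
Log2 fold change of mos11 over Col-0 (vertical axis) for tested genes of each list, 1 point per gene, in the nucleus (left) and cytoplasm (right), red where the adjusted p is under 0.05 and with the all-gene median as a dotted line. The 14-3-3 genes called in either fraction are all lower in mos11, and the 6 other P-type ATPases called in the cytoplasm are all higher.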

How the data were processed

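The authors deposited 1 table of raw counts of 30901 genes, and all 18 columns were matched to a group and replicate by name. The labels list 28 samples on 2 flow cells, and whether a column sums both runs of a library is not stated. Tools listed by the submitters' processing notes are featureCounts, Picard, STAR 2.7.8a and UMI-tools, with TAIR10 as the build. Molecular identifiers were read, per the labels.

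Counts were fitted in R 4.3.3 with edgeR 4.0.16: 4 groups together, TMM scaling, default filterByExpr (16207 genes, of which 9905 also passed with the libraries of each fraction alone), quasi-likelihood tests, and Benjamini-Hochberg adjustment over all tested genes. Standard errors are approximate and were obtained from each log2 fold change and its F statistic. The script was tested on simulated data. Percentages and floors (3 counts over a group) use raw totals. Correlations used log2 CPM with a prior count of 0.5. Gene models came from RefSeq TAIR10.1, whose exon union gave the length for CPM per kb.

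The members and lists were chosen with earlier results of these data known. Named genes were all members, their overlapping loci, MOS11, up to 4 genes of each list with the smallest p per comparison, and the 5 genes most like HA1, HA2 and HA8. Variance between replicates was 1.18 to 13.1 times that of sampling, and each library counts as 1 replicate. Residuals of same-numbered libraries correlated at 0.108 to 0.342 between Col-0 fractions and at most 0.0932 elsewhere. Libraries of different number were not compared, so whether the Col-0 fractions are paired was not tested. The main fit has no term for pairing. Alternatives were RLE scaling, no filter, at least 1 CPM in 4 libraries, DESeq2 1.42.0, a replicate block, only the groups compared, and omissions of libraries.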

Additional observations from a re-analysis of the deposited data

Results flagged for a closer look

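The ratio of nucleus to cytoplasm differed between the genotypes for HA1 by -0.65 (log2, mos11 minus Col-0) and for HA11 by -0.87, each by the interaction term of the fit across all genes (edgeR adjusted p = 0.0257 and 0.0414). In mos11 the nucleus over cytoplasm change was 0.21 for HA1 and 0.17 for HA11, and in Col-0 it was 0.86 and 1.03. The gap of the highest or lowest library to its neighbour was checked in 36 combinations of a member and a group, and 0 stood out, where chance alone gives about 1 in 20.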

How the results depend on the processing

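Most of the members' values kept their direction and their side of the threshold: 866 of 947 comparisons with an alternative did, 42 lost a call, 19 gained one, 19 changed sign and 1 moved beyond its error. HA1 in the cytoplasm was called in every alternative run. Over the 7 tested members other than HA8, AHA10 included, 2 were called in the nucleus, 2 in the cytoplasm and 2 for the difference of ratios. Of all tested genes, 20.1%, 12.4% and 1.58% were called in these comparisons. AHA10, 1 of the 2 in the cytoplasm, passed the filter through the nuclear libraries alone. Of the 4 members that passed in each fraction, 1 was called there. The count in the nucleus was 0 with the replicate block and 0 without Col-0 replicate 3 in both fractions. In the cytoplasm it was 1 with the replicate block and 1 with only the groups compared, in both of which AHA10 fell under the filter on low counts, and for the difference of ratios it was 1 with RLE scaling. Leaving out 1 library gave 0 to 2 members in the nucleus, 1 to 2 in the cytoplasm and 0 to 2 for the difference of ratios. Over all genes, the replicate block gave 968 calls in the cytoplasm (2014 without it) and 629 for the difference of ratios (256 without it), DESeq2 gave 583 there, and omissions gave 132 to 333. The block changed 1 other call, HA1 for nucleus over cytoplasm in mos11 (0.24, adjusted p = 0.00186). The causes were not tested.

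Changes of sign were all in values near 0. HA3 for the difference of ratios was 0.040 with RLE, 0.028 with DESeq2, 0.083 without Col-0 replicate 3 in both fractions, and -0.24 to 0.086 over omissions. HA7 in the nucleus was 0.015 with only the groups compared and -0.11 to 0.071 over omissions. HA8 in the nucleus was 0.040 without Col-0 replicate 3 in both fractions and -0.26 to 0.039 over omissions, and HA2 in the cytoplasm was -0.034 to 0.30 over omissions. RLE moved the family sum to 983 CPM in mos11 nuclei and 978 CPM in Col-0 nuclei. Thinning the deepest library to the median of its group, chosen after seeing the data, ended the call of HA2 for nucleus over cytoplasm in mos11 (0.27, adjusted p = 0.0571). Depth limits HA4, HA7, HA8, HA9 and AHA10 in the cytoplasm, where Col-0 held 9 counts of HA7 and 4 of HA4 in all.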
